A study of Schizosaccharomyces pombe with 8 samples.

Results

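The genes examined were the fission yeast protein-coding genes whose name is prp, cwf or lsm followed by a digit, most of which encode proteins of the spliceosome. The rule found 49 genes, 19 prp, 22 cwf and 8 lsm, among 5129 protein-coding genes. These 49 genes have 110 coding parts, the listed stretches of coding sequence, which introns usually separate. The name rule chose the genes, and no measured value entered it. The annotation of the reference describes 16 as snRNP proteins or U2AF, 7 as Prp19 complex subunits, 4 as RNA helicases and 3 as splicing factors. It names 11 by their cwf symbol alone and 7 by another protein type, such as a GTPase, a kinase or an RNA-binding protein. It describes lsm1 as a subunit of the mRNA decapping complex, so lsm1 belongs to the gene family but is not annotated as a spliceosome gene. The genes lie on chromosome I (10 of 2335 genes), chromosome II (26 of 1867) and chromosome III (13 of 916). The pairs cwf22 and cwf24, and prp11 and cwf23, are direct neighbours in the same orientation, 631 nt and 1062 nt apart.

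Nascent RNA was measured by NET-seq, in which the RNA held by RNA polymerase II (Pol II) is recovered by immunoprecipitation and sequenced. All cells carried flag-tagged Rpb3, a Pol II subunit, and were Schizosaccharomyces pombe in exponential growth. Untreated cells were compared with cells given 20 µg/ml trichostatin A (TSA), an inhibitor of class I and class II histone deacetylases, for 2.5 h. There were 2 biological replicates of each condition. From every culture both the immunoprecipitated nascent RNA and the input RNA were sequenced, which makes 8 libraries. Lysate of flag-tagged Saccharomyces cerevisiae was added to each lysate as spike-in. The labels name no further allele or agent. In such bulk libraries, fewer cells transcribing a gene and less RNA per cell cannot be told apart.

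The spliceosome removes introns from pre-mRNA in steps that small nuclear RNAs and their proteins carry out, largely while the RNA is still being transcribed. The U1 and U2 particles recognise the intron, the U4/U6.U5 tri-snRNP joins them, RNA helicases rearrange the assembly, and the Prp19 complex, purified in fission yeast with Cdc5, is needed for its active form. The cwf genes are named for being complexed with Cdc5. The LSm proteins form rings on RNA: the ring with Lsm8 binds U6 snRNA in the nucleus, while the ring with Lsm1 acts with decapping factors in the cytoplasm. Many fission yeast genes have introns, most of them short, so many genes depend on this machinery.

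The spliceosome genes are themselves interrupted by introns. In the ASM294v3 assembly, counting gaps of at least 20 nt, 60 introns lay in the coding sequence of 31 of the 49 genes. Their lengths were 38 to 485 nt with a median of 53.5 nt, against 56 nt over 5064 introns of all genes. cwf22 has 2 coding parts there too, but the gap between them is shorter than 20 nt and was not counted. All 60 began with GTA and ended with AG. The 5′ splice site GTAAGT was the most frequent and opened 19 of the 60 introns, a share of 31.67% against 27.49% of all introns. GTATGT opened 14, a share of 23.33% against 19.96%. The letters CTAAC or CTAAT, which match the branch point consensus of fission yeast, occurred on the coding strand in 50 of the 60 introns, 83.33% against 69.41% of all introns. These shares describe the sequences and carry no test. The introns shown here follow the first coding parts of at most 10 nt, whose nascent reads are described further on, with the splice sites (the first 6 and last 3 bases) in capitals. All are on the minus strand of ASM294v3, from RefSeq. They lie at I:2563890-2563960 (cwf21), II:3088853-3088890 (lsm4), II:3549787-3549876 (cwf29) and I:4336727-4336777 (prp10).
cwf21 intron 1: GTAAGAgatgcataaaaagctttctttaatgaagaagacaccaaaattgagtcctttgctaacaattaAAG
lsm4 intron 1: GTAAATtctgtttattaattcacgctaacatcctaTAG
cwf29 intron 1: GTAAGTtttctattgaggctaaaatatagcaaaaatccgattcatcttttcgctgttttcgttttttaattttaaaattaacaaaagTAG
prp10 intron 1: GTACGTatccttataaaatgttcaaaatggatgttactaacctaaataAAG

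The 3 introns of lsm1, also on the minus strand, are given because the reads of this gene were spread unevenly over the coding parts they separate. They lie at II:1284973-1285020, II:1284856-1284903 and II:1284663-1284739. The splice sites are again in capitals.
lsm1 intron 1: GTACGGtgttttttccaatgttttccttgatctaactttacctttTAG
lsm1 intron 2: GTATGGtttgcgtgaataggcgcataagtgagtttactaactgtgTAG
lsm1 intron 3: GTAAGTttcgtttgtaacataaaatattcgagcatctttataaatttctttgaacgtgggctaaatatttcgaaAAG

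The nascent libraries held 7218671 to 10436194 reads over all features, with a median of 218 to 404 reads per spliceosome gene and at least 60 in every library. The input libraries held 8104143 to 12591213 reads, with a median of only 40 to 58 reads per spliceosome gene and as few as 7, so changes in the input are less precise. The deposited nascent values exist on 2 scales. On the spike-in scale, reads are scaled to the S. cerevisiae ribosomal protein genes, and a shift shared by most genes can show. On the total-read scale, reads are scaled to all mapped reads, and it cannot. The spike-in factors applied by the authors were 1 and 0.547 for the untreated and 0.552 and 0.808 for the TSA libraries, and the total-read factors of the same libraries were 0.743, 0.658, 0.780 and 1. On the spike-in scale the first untreated replicate lay above the second in 46 of the 49 genes and in 88.7% of all 8052 features tested. On the total-read scale it did so in 6 of the 49 genes and in 16.8% of features.

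In untreated cells the lsm genes, which encode the shortest proteins of the set, had the highest median nascent level per kb of coding parts. Levels are compared here as reads per kb of coding parts. These parts make up 12.7% (lsm4) to 68.8% (lsm8) of the listed lengths of the lsm genes. Levels per kb of whole gene were not compared, so the order given holds for coding parts only. The median nascent level on the spike-in scale was 362 for the lsm genes, 115 for the prp genes and 126 for the cwf genes. It was 136 over all 49 genes and 143 over all 5129 protein-coding genes. The lsm genes were also ahead in the input, with a median of 57.5 scaled reads per kb against 20.4 for the prp and 19.0 for the cwf genes.

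The 6 highest nascent levels per kb of coding parts all belonged to lsm genes, in the order lsm1, lsm8, lsm7, lsm4, lsm2 and lsm5. Next came cwf21, whose budding yeast relative Cwc21 works in the activated spliceosome, with 389 and 251 in the 2 untreated libraries. lsm1 stood at 1452 and 450, so its first place rested on the first untreated replicate. lsm8, which gives the nuclear ring its identity, stood at 582 and 511, and lsm7, a subunit of both rings, at 550 and 496. The second value of lsm1 lay below both values of lsm8 and of lsm7, so these 3 cannot be ranked beyond their spread.

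At the other end, cwf11, a relative of the human intron-binding helicase Aquarius, had the lowest mean level on the spike-in scale, 65.1 and 49.8 reads per kb. cwf23, which encodes a DnaJ-domain protein, stood next to it at 74.7 and 40.9. The ranges of these genes overlapped, and on the total-read scale cwf23 was the lower. Nascent and input reads per kb on the total-read scale differed in their ratio from gene to gene. The ratio ranged from 2.56 for lsm6 to 27.2 for cwf20, with a median of 5.61. mid1, whose untreated nascent reads on the spike-in scale were 927 and 631, overlaps cwf20 by 556 nt on the same strand, so reads there cannot be assigned to either gene. The input of cwf20 held only 10 to 16 reads per library.

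**Figure D1:**
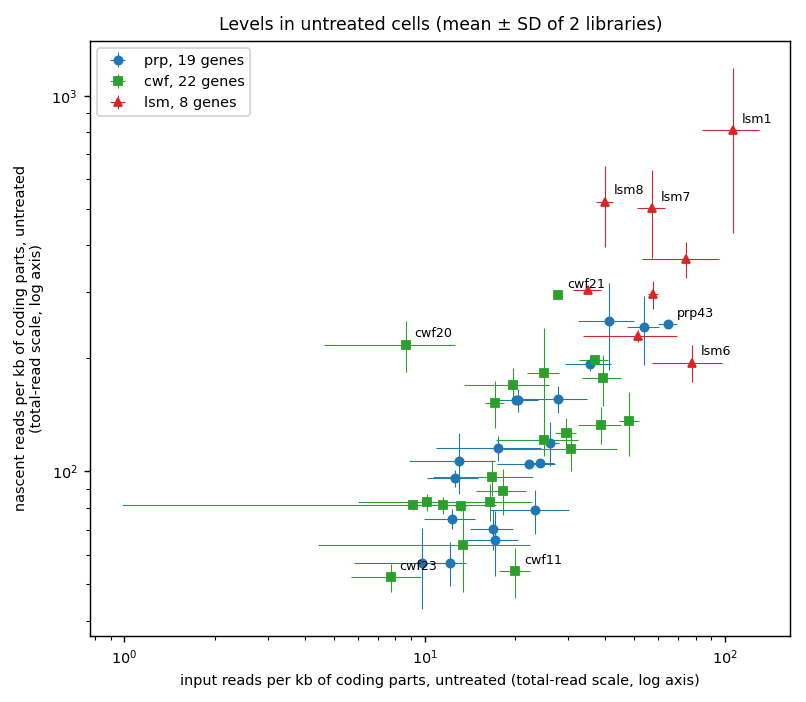
Nascent reads (y axis) against input reads (x axis) per kb of coding parts in untreated cells, total-read scale, log axes, with mean ± SD of 2 libraries for 19 prp (circles), 22 cwf (squares) and 8 lsm genes (triangles). The lsm genes occupy the upper right, lsm1 has the widest nascent error bar, and cwf20 stands to the left with a ratio of 27.2.

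Within the genes, nascent reads were densest at the start. Of the 32 genes with several coding parts, 28 (87.5%) had more nascent reads per kb in the first than in the last part in untreated cells, with a median ratio of 3.28 after total-read scaling. The input of the same cells gave 16 of the 31 genes with a ratio, with a median of 1.08. The same held for protein-coding genes at large, where the first part was denser in 87.5% of 2364 genes in nascent RNA and in 54.6% of 2268 in the input. With TSA the median ratio of the spliceosome genes was 2.94 in nascent RNA and 0.810 in the input, against 2.03 and 1.09 for all genes. Where both parts were at least 50 nt, the length of a sequencing read, 13 of 15 spliceosome genes had the denser first part in untreated nascent RNA, with a median ratio of 2.24, against 86.0% and 2.10 over all genes. With TSA it was 11 of 15 with a median of 1.57, against 82.7% and 1.72. The study's methods say that NET-seq reads were trimmed to their 3′ nucleotide, the position of the Pol II active centre. Whether the deposited counts were made from trimmed reads is not stated, and the share of the read assignment in the levels of the shortest parts was not tested.

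In untreated nascent RNA the largest ratios, 73.3 for prp10, 41.4 for cwf21 and 34.0 for lsm4, came from first parts of at most 10 nt. lsm8 followed at 33.2 with a longer first part. cwf29, described here for its short first part, had a ratio of 8.29. The first coding part of prp10, the fission yeast SF3B1 subunit of U2, is 10 nt long and held 51 and 208 spike-in scaled nascent reads in untreated cells, and 130 and 132 with TSA. The spread between the untreated replicates there exceeded the difference between the groups. In cwf21 the first part is the 3 nt of the start codon, with 40 and 29.0 reads in untreated and 20.4 and 24.2 in TSA libraries. The 3 nt first part of lsm4 held 21 and 30.6 reads, then 23.2 and 10.5. The 5 nt first part of cwf29 held 7 and 4.38 reads, then 4.97 and 3.23. In the inputs, prp10 and cwf21 had 0 reads over this part in all 4 libraries, while that of lsm4 had reads in 3 of 4 and that of cwf29 in 2 of 4.

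**Figure D2:**
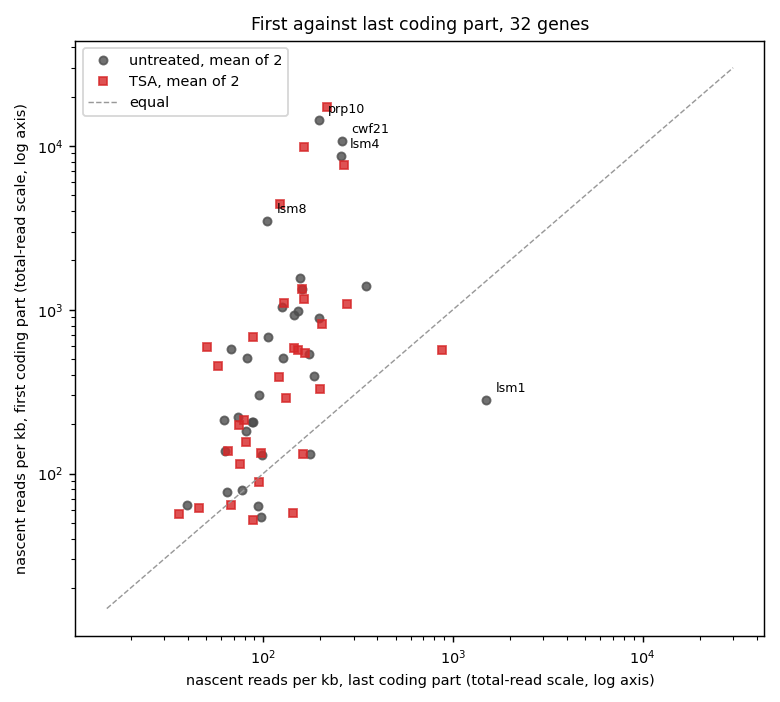
Nascent reads per kb of the first (y axis) against the last coding part (x axis) of the 32 genes with several parts, total-read scale, log axes, as means of 2 untreated (circles) and 2 TSA libraries (squares), with equality as the dashed line. Most points lie above the line; prp10, cwf21, lsm4 and lsm8 lie farthest above it and lsm1 below it.

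lsm1 had the opposite distribution. Its last part, number 4, is 174 nt long and held 516 spike-in scaled reads in the first untreated library but 117 in the second, 107 in the first TSA and 124 in the second TSA library. Its first part held 15 and 20.8, then 23.7 and 31.5 reads. The high value of lsm1 in the first untreated library thus sat in a single coding part.

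The first comparison asked how nascent transcription of these genes differed after TSA. On the spike-in scale all 49 genes were lower after TSA, by a median of -0.53 on the log2 scale, with a range of -1.11 to -0.09. Of all features tested 81.5% were also lower. So were 2383 of 2653 protein-coding genes with 1 coding part and 2141 of 2361 with several. The median over all 8052 features was -0.42 and over protein-coding genes -0.49, so the spliceosome genes lay close to the general shift. Calls required a limma adjusted p below 0.05 together with at least a 2-fold difference. By this rule cwf21 was the only gene called lower, 1 of 49 (2.04%) where 6.31% of all features were, and 0 were called higher where 2.10% of all features were. At an unadjusted p under 0.05 there were 15 genes (34.0% of features, in either direction). edgeR called 3 lower (cwf21, lsm1 and prp1), against 7.71% of features, and DESeq2 called 2 (cwf21 and prp1), against 6.54%, with 0 higher by either tool. Scaling the libraries by TMM, which sets the typical feature to no change, turned the edgeR calls over all features from 195 higher and 621 lower to 354 higher and 72 lower, with 0 spliceosome genes called and their median at -0.08. Without the fold threshold, 7 of 49 genes (14.3%) were lower at an adjusted p under 0.05, against 13.6% of features. Both TSA libraries lay below both untreated libraries in 39 genes (79.6%), against 58.0% of features.

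The prp genes had a median change of -0.54, the cwf genes of -0.51 and the lsm genes of -0.49. The 17 genes with a single coding part had a median of -0.65 and the 32 with several -0.45. Over all protein-coding genes the corresponding medians were -0.52 and -0.47. At a median standard error of 0.30 per gene these group medians are descriptions and were not compared by a test.

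cwf21 (SPAC4A8.09c, minus strand, I:2562477-2564277 as the files give it) had 532 and 366 nascent reads in untreated cells and 174 and 234 with TSA. Both TSA libraries lay well below both untreated ones. The log2 change was -1.11 (SE 0.30, n = 2 per group, limma adjusted p = 0.0053), or 2.15-fold lower. On the total-read scale its libraries stood at 395 and 440, then 246 and 290, again without overlap, with a log2 change of -0.63 (SE 0.26, adjusted p = 0.11). The call at 2-fold did not hold without the first untreated library (-0.84, adjusted p = 0.023), without the first TSA library (-0.90, adjusted p = 0.81) or without the second TSA library (-1.31, adjusted p = 0.28). Over its coding parts alone the change was -0.93 (SE 0.31, adjusted p = 0.036), short of the fold threshold. rog1 overlaps cwf21 by 623 nt on the opposite strand, including the start of cwf21, and its change was -0.89. The strand setting of the counting is not given in the sources used here, and the share of rog1 reads in the cwf21 values was not tested.

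A further 6 genes were lower at an adjusted p under 0.05, and all but lsm1, given with the lsm genes, are described here. prp1 encodes a tri-snRNP protein and went from 401 and 269 to 152 and 176 reads, a log2 change of -0.98 (SE 0.30, adjusted p = 0.016). prp16, an RNA helicase of the second splicing step, went from 549 and 386 to 207 and 264 reads (-0.96, SE 0.30, adjusted p = 0.016). In both genes the groups did not overlap, by a wide margin, where 58.0% of features did not overlap in this direction. With 1 library left out, the change of prp1 ranged from -1.26 to -0.70 and that of prp16 from -1.21 to -0.71. prp45, the Prp19 complex subunit related to human SKIP, had 463 and 261 reads and then 147 and 243, so that its nearest libraries almost met (-0.86, SE 0.30, adjusted p = 0.035). Its change was -0.45 (adjusted p = 0.29) without the first untreated library and -0.51 without the first TSA library. cwf24, a zinc finger protein, had 240 and 176 reads, then 108 and 116 (-0.84, SE 0.31, adjusted p = 0.046). prp43, the helicase that takes spent spliceosomes apart, had 888 and 591 reads, then 384 and 453 (-0.79, SE 0.29, adjusted p = 0.046). In the limma fit, with its pseudocount, all of these were under 2-fold, while edgeR and DESeq2 put prp1 at -1.03. On the total-read scale prp1 and prp16 had changes of -0.51 and -0.48, with adjusted p of 0.23 and 0.28.

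At the other end of the order 5 genes had the smallest differences. prp22, the helicase that releases the mRNA, had 315 and 272 reads untreated and 274 and 277 with TSA (-0.09, SE 0.30). cwf29, an RNA-binding protein, had 149 and 113, then 119 and 112 (-0.17, SE 0.32). prp3, a tri-snRNP protein, had 578 and 484, then 417 and 512 (-0.19, SE 0.29). In these 3 genes the groups overlapped. cwf5, an RNA-binding subunit of the Prp19 complex, had 198 and 153 reads, then 138 and 162 (-0.21, SE 0.31), and cwf11 had 261 and 199, then 208 and 183 (-0.22, SE 0.30), also with overlap.

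**Figure D3:**
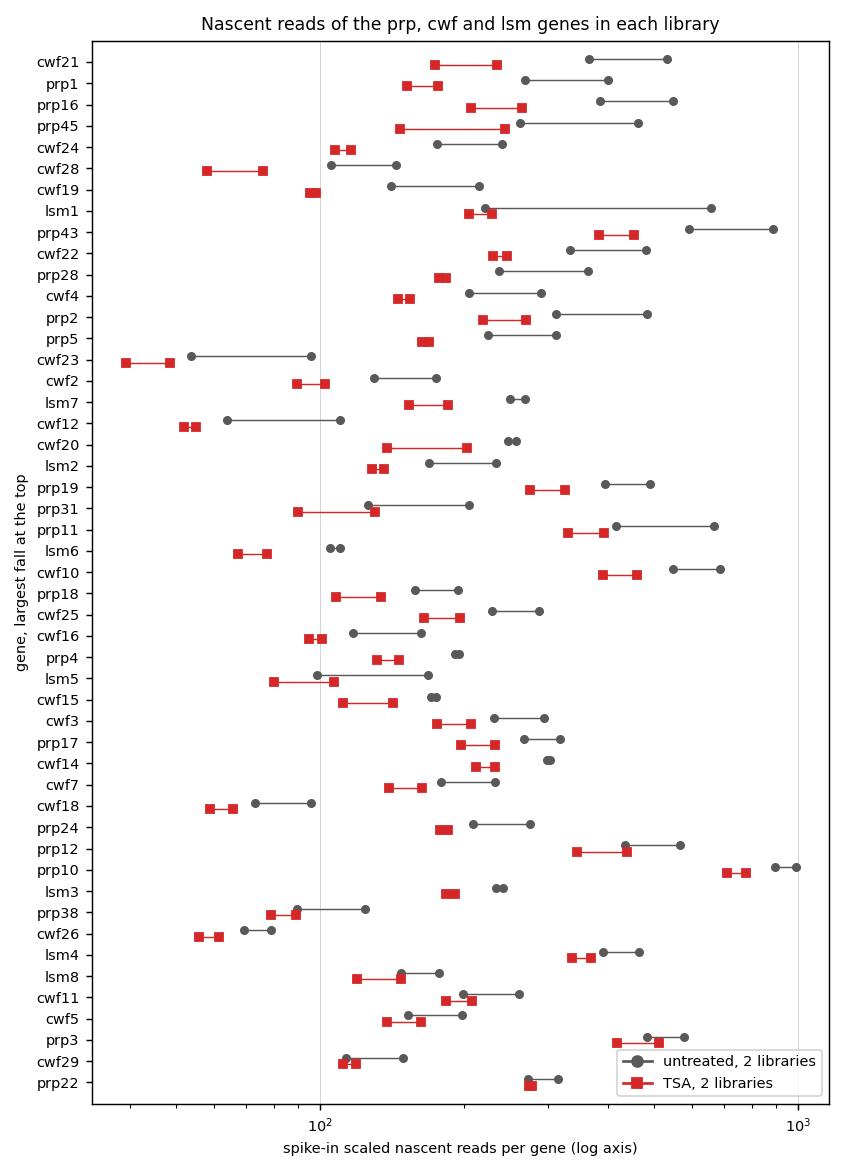
Spike-in scaled nascent reads per gene (x axis, log) for the 49 genes (y axis, ordered by log2 change), with 2 untreated libraries as circles and 2 TSA libraries as squares, each pair joined by a line. The TSA pair lies wholly to the left of the untreated pair in 39 of 49 genes; lsm1 has the widest untreated pair, 657 and 221.

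All 8 lsm genes were lower after TSA on the spike-in scale, and none was called. lsm1 had 657 and 221 reads in untreated cells and 205 and 229 with TSA, so the second untreated library lay between the 2 TSA libraries. Its change of -0.80 (SE 0.30, adjusted p = 0.046) became -0.03 without the first untreated library. The nuclear ring member lsm8 had 177 and 148 reads, then 120 and 148 (-0.27, SE 0.31), with overlap. Among the subunits of both rings, lsm7 had 269 and 250 reads, then 185 and 154, a change of -0.60 (SE 0.31), and lsm6 had 105 and 110, then 67.3 and 77.6 (-0.54, SE 0.33). Neither gene's groups overlapped. lsm2 had 233 and 169 reads, then 136 and 129, a change of -0.56 (SE 0.31). Its coding parts differed, with -1.35 in part 1 and 0.40 in part 3. lsm3 had 242 and 233 reads, then 184 and 192 (-0.33, SE 0.30), and lsm4 had 464 and 392, then 337 and 369 (-0.27, SE 0.29), both without overlap. lsm5 had 168 and 98.5 reads, then 107 and 80.0 (-0.45, SE 0.32), with overlap. Of the 110 coding parts of all 49 genes, 103 were lower after TSA, and parts of a gene are not independent of each other. With coding parts summed per gene, 2221 of 2412 protein-coding genes with 1 part and 2018 of 2189 with several were lower.

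Relative to all mapped reads, the differences were small. On the total-read scale the median change of the spliceosome genes was -0.05 (0.03 over all 8062 features), 28 of 49 were lower, and the range was -0.63 for cwf21 to 0.39 for prp22. limma called 0 genes higher and 0 lower, where it called 4.45% of features higher and 0.843% lower. At an unadjusted p under 0.05 there were 2 genes, cwf21 and prp1, where 20.8% of features were. edgeR and DESeq2 on the recovered reads also called 0, against 7.19% and 4.20% of features in either direction. The median depended on the untreated replicates: it was -0.21 (41 genes lower) without the first and 0.14 (20 lower) without the second.

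The input RNA was compared in the same way on the total-read scale, the only scale deposited for it. The median change of the 49 genes was -0.12, against -0.0016 over all 7245 features and -0.05 over protein-coding genes, with 30 genes lower. limma called 0 genes higher, where 4.53% of features were, and 0 lower, where 1.56% were. By limma 8 genes had an unadjusted p under 0.05, where 29.0% of features did. edgeR and DESeq2 also called 0, against 6.34% and 2.15% of features in either direction. The median was -0.22 (36 genes lower) without the first untreated input and 0.0043 (24 lower) without the second. Both TSA inputs lay below both untreated inputs in 12 genes (24.5%), against 29.1% of features, and above them in 7 genes (14.3%), against 28.7%.

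The lowest input changes were those of prp38, cwf4 and cwf19. prp38, a tri-snRNP protein needed for activation, had scaled input reads of 15.2 and 10.9, then 7.07 and 6.05 (-0.87, SE 0.36, adjusted p = 0.12), from 21 and 12, then 12 and 7 reads. cwf4, a relative of budding yeast Clf1, had 32.5 and 50.2, then 28.9 and 24.2 (-0.59, SE 0.25, adjusted p = 0.12). Neither gene's groups overlapped. cwf19, an intron turnover factor related to budding yeast Drn1, had 27.5 and 25.5, then 28.3 and 10.4 (-0.58, SE 0.35), so a single TSA library set its value.

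The highest were cwf18, cwf15 and cwf26. cwf18 had scaled input reads of 5.78 and 12.8 untreated and 15.9 and 15.6 with TSA (0.78, SE 0.37, adjusted p = 0.17), from 8 and 14, then 27 and 18 reads. cwf15, a relative of budding yeast Cwc15, had 25.3 and 19.2, then 37.1 and 36.3 (0.71, SE 0.24, adjusted p = 0.062). In both the TSA inputs lay above the untreated ones. cwf26, a relative of budding yeast Bud13, had 10.1 and 21.0, then 23.6 and 20.7 (0.56, SE 0.32), with overlap. cwf21 had scaled input reads of 38.3 and 44.7, then 43.6 and 42.3 (0.05, SE 0.20). On the same total-read scale its nascent change was -0.63 and not called. Its change of nascent over input, given below, was not called either.

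**Figure D4:**
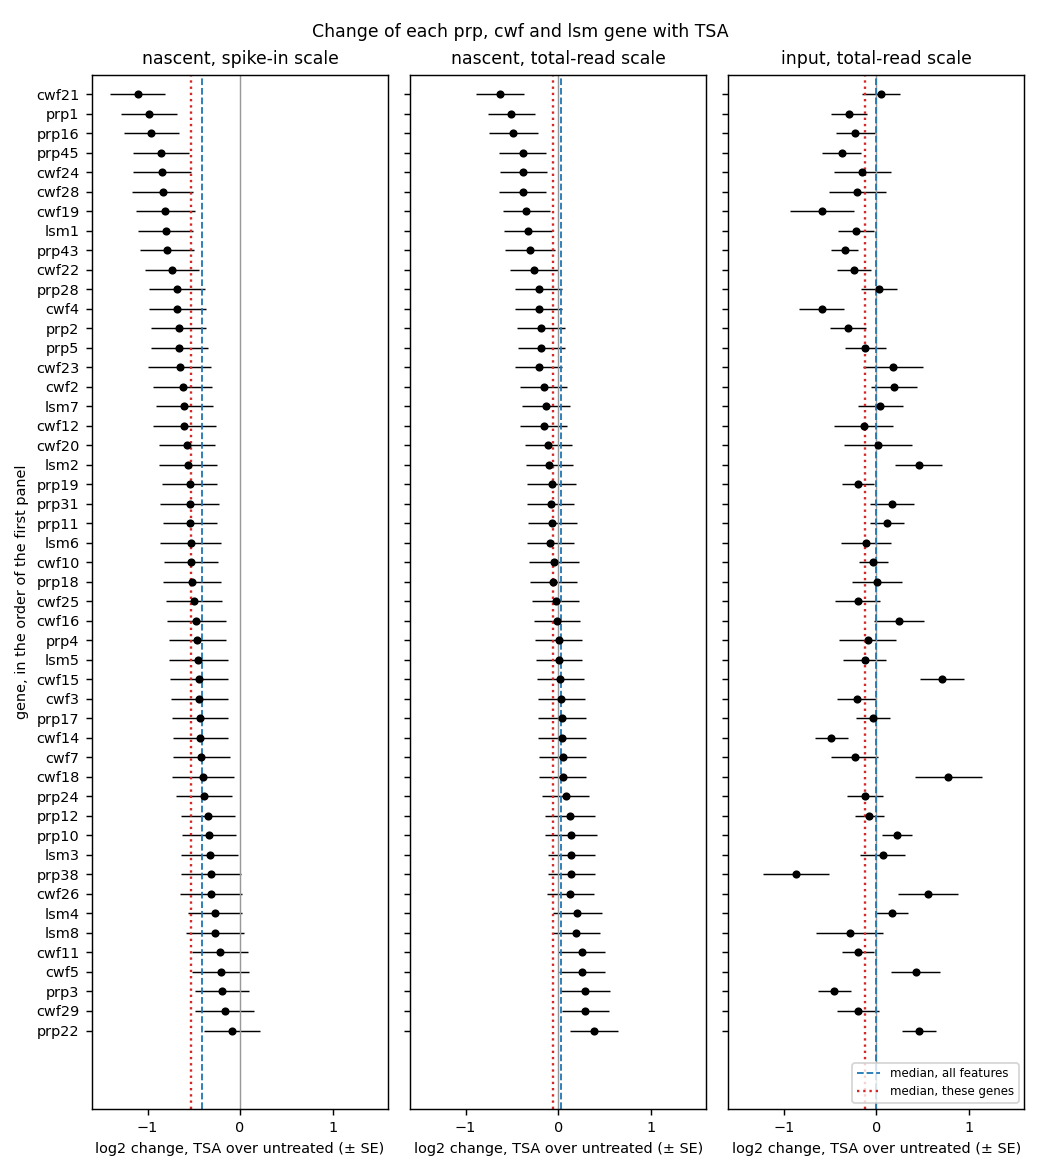
Log2 change of TSA over untreated (x axis, ± SE, 2 against 2 libraries) of the 49 genes (y axis, ordered by the first panel) in nascent RNA on the spike-in and total-read scales and in the input; the dashed line is the median of all features and the dotted line that of the 49 genes. In the first panel every gene lies left of 0 around a median of -0.53, and in the others they lie around -0.05 and -0.12.

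Whether nascent and input RNA changed by different amounts was tested on the change of nascent over input within each culture. limma called 0 genes higher and 0 lower, against 0.00% and 0.0418% of 7183 features, and 3 genes had an unadjusted p under 0.05, where 10.5% of features did. No count tool was run on this comparison. Those 3 were prp38, prp3 and cwf21. prp38 had the highest value, 1.01 (SE 0.40, adjusted p = 0.44), with nascent reads of 92.1 and 108, then 112 and 110 on the total-read scale. prp3 followed with 0.74 (SE 0.23, adjusted p = 0.34), with nascent reads of 429 and 582, then 590 and 634, and scaled input reads of 73.0 and 75.7, then 51.8 and 56.2. cwf14, annotated as a G10 protein, had 0.53 (SE 0.25), with nascent reads of 225 and 360, then 300.3 and 287, and input reads of 83.8 and 100.3, then 71.3 and 59.6. The lowest were cwf18 at -0.73 (SE 0.41), and cwf21 and cwf15, both at -0.68, with SE of 0.25 and 0.38. Total-read scaled nascent reads were 71.3 and 88.2, then 92.8 and 73 for cwf18 and 127 and 211, then 158 and 176 for cwf15, beside inputs in which both TSA libraries were above the untreated ones.

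The listed prp3 and cwf14 gene regions are mostly not coding, since coding parts make up 28.3% and 11.8% of their lengths. The input change of their coding parts alone was -0.35 (SE 0.23) and -0.47 (SE 0.25). pof11 overlaps prp3 by 30 nt on the same strand, with spike-in scaled nascent reads of 594 and 449.7, then 777 and 761. pof11 was called higher on the total-read scale (1.05) and not on the spike-in scale (0.57, adjusted p = 0.15), and its share in the prp3 values was not tested.

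Fits restricted to coding parts, which leave out introns and untranslated stretches, covered 48 of the 49 genes, since cwf18 was below the level set for testing. In nascent RNA on the spike-in scale the median change was -0.45 (-0.44 over 4601 genes). limma called 0 of them higher and 0 lower, where it called 0.761% and 2.96% of genes, and 11 had an unadjusted p under 0.05, against 35.2% of genes. In the input the median was -0.12 (-0.08 over 4519 genes), and limma again called 0 higher and 0 lower, against 2.61% and 1.22%, with 3 at an unadjusted p under 0.05, against 32.7%. No count tool was run on the coding parts.

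Of the genes, 32 had 50 features on their opposite strand, 25 of them protein-coding genes. The other 25 were non-coding and lay opposite 17 genes. Of these, 18 could be tested and 1 was called, lower on both nascent scales. The feature called, opposite prp16, had 23 and 14.2 spike-in scaled reads untreated and 1.10 and 5.66 with TSA (-1.41, SE 0.36, limma adjusted p = 0.0026). Both TSA values lay below the pseudocount of 6. It lies wholly within a longer antisense RNA, SPNCRNA.1491, which was not called (-0.70, SE 0.35, limma adjusted p = 0.14). The 8 annotated antisense RNAs named after a spliceosome gene were not called on either nascent scale, and their median change was -0.36 on the spike-in scale. cwf4-antisense-1 had 17 and 17.5 reads, then 27.6 and 31.5 (0.61, SE 0.35, adjusted p = 0.20), or 0.98 (adjusted p = 0.0057) on the total-read scale, just under the fold threshold, and was the only one of the 8 with both TSA libraries above both untreated ones.

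Further spliceosome genes were compared beside these, from a list of 80 names of which the files held 61. They include the Sm proteins, the SF3 subunits named sap, and Cdc5 itself. Their median nascent change on the spike-in scale was -0.53, with 59 of 61 lower, where 81.5% of all features were. limma called 2 of the 61, both lower, namely sap10 (-1.22) and rsd1 (-1.01), where it called 6.31% of features lower. In the input 1 was called, dim1 (-1.36), a small tri-snRNP protein, which was lower, where 1.56% of features were called lower. The median input change of the 61 was -0.09. cdc5, whose protein gave the cwf genes their name, had -0.37 in nascent RNA and -0.02 in the input.

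The 7 genes of the decapping machinery that works with the Lsm1 ring (dcp1, dcp2, edc3, ste13, pdc1, pdc2 and exo2) had a median nascent change of -0.56, from -0.88 for pdc1 to -0.09 for edc3, and none was called. In the input their median was 0.03, and none was called. Of all features, 2.10% were called higher and 6.31% lower in nascent RNA, and 4.53% and 1.56% in the input.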

How the data were processed

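NET-seq and input reads were, per the authors, trimmed with cutadapt and mapped uniquely with Bowtie at a tolerance of 1 mismatch. The paper's methods describe NET-seq mapping in 2 places with different Bowtie versions, and 1 of these names ASM294v2.28 as the S. pombe genome. Which description applies to the deposited tables is not stated. Values were deposited as reads of each feature times a library factor chosen by the authors. A column with factor 1 therefore holds a raw count, and every other column used is a deposited, scaled signal. Whole reads were recovered for 100% of values (tolerance 0.001). The deposited densities and 6 summed replicate columns were not used.

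Of 19343 features, 10204 coding parts and 28 repeated pseudogene transcripts were set aside and 9111 kept. limma 3.58.1 (R 4.3.3; lmFit, eBayes with trend) was run on log2(value + pseudocount). The pseudocount was set at percentile 10 of the values above 0 (6 nascent spike-in, 6.58 nascent total, 1.18 input; 30 and 5.30 for coding parts). All features whose mean exceeded it were tested, with Benjamini-Hochberg adjustment. Fold changes are therefore on the log2(value + pseudocount) scale and understate changes of low genes. For nascent RNA limma drew all variances fully to the trend, so standard errors are shared by genes of like level. The plan named limma for scaled values, with edgeR 4.0.16 and DESeq2 1.42.0 on recovered reads as alternatives. With 2 libraries a group, an exact permutation test cannot go below p = 0.333 two-sided, and p-values measure only the spread between these libraries. Alternatives were the pseudocount, the filter, leaving out each library, a replicate block, other scalings and the count tools. The limma fits of spike-in nascent RNA, of its coding parts and of the input were also run on simulated counts. The other comparisons and the count tools were not, and no result given here rests on that run.

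The genes, lists and tests were chosen with earlier results of these data known. Named were the genes called in any comparison, the 5 highest and lowest changes in spike-in nascent RNA, the 3 and 3 in the input and in nascent over input, the highest and lowest level, all lsm genes, and, chosen after their values were seen, prp43, prp10, cwf20 and cwf23 and the overlapping and other genes. Identifiers of 49 of 49 genes matched ASM294v3, 47 with identical coding parts. Gene positions are as deposited, and sequences come from ASM294v3. The source of the feature annotation and the strand setting of the counting are not given in the sources used here.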

Additional observations from a re-analysis of the deposited data

How the results depend on the processing

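On the spike-in scale the number of spliceosome genes called lower in nascent RNA ranged from 0 to 10 when 1 library was left out: it was 10 without the second untreated library (cwf19, cwf21, cwf23, cwf24, cwf28, lsm1, prp1, prp16, prp43 and prp45), where 16.95% of all features were called lower, and 0 without each of the other 3. In those 3 settings far fewer of all features were called lower as well. The range thus moved with the calls over all features and does not show that these genes are less stable than others. The number of spliceosome genes called lower was 3 by edgeR, 2 by DESeq2, and 0 under the replicate block, median-ratio scaling and edgeR with TMM. The median change ranged from -0.66 to -0.34 with 1 library left out and was -0.078 under both median-ratio scaling and TMM, which take the median of all features from -0.42 to about 0 by construction. For coding parts the number called lower ranged from 0 to 6 with 1 library left out (6 without the second untreated library, where 13.65% of all genes were). Here too, far fewer of all genes were called lower without each of the other 3 libraries. The median change of the coding parts ranged from -0.64 to -0.21, and was -0.025 with median-ratio and -0.067 with total-read scaling. In the input, the change of cwf18 became 1.28 without the second untreated library, and that of cwf19 became -1.26 without the first TSA library. With 1 library left out, the median input change of the coding parts ranged from -0.17 to 0.013. The median ranged from -0.21 to 0.14 in total-read nascent RNA, from -0.22 to 0.0043 in the input and from -0.034 to 0.0078 in nascent over input, so these medians have no settled sign. The total-read nascent calls and those of nascent over input stayed at 0 under every alternative run on them. Where leaving out a library left 1 in a group, its spread was taken to be that of the other group.

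The labels number the replicates but do not say that a number pairs cultures. With the replicate block, cwf21 kept its change of -1.11 at an adjusted p of 0.064, and no other call of a spliceosome gene changed; over all features the calls in spike-in nascent RNA went from 169 higher and 508 lower to 74 and 167. Deviations of same-numbered libraries correlated at -0.21 and -0.24 on the spike-in and total-read nascent scales and 0.02 in the input. The crossed pairing, added after seeing the data, called 1 spliceosome gene (cwf21, lower) with spike-in scaling and 0 with total-read scaling. Of 1382 values of the 25 named genes under these alternatives, the crossed pairing aside, 106 changed sign, all without a call on either side. Of the 106, 28 were in spike-in nascent RNA of whole genes and 26 in that of coding parts. The alternatives counted there include scalings that replace the spike-in. Input depth limits the low genes most, with as few as 7 reads.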
